A study of Mus musculus with 4 samples.

Results

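Hedgehog signalling was followed through 9 genes that code for its receptors, their partners and the Gli transcription factors: Ptch1, Smo, Gli1, Gli2, Gli3, Sufu, Hhip, Gas1 and Boc. They were chosen by symbol from the 20296 genes of the authors' deposited comparison table, and all 9 were present and tested. The table compares epiblast-like stem cells (EpiLSC) with naive mouse embryonic stem cells (nESC), each state sampled 1 time in the line R1 and 1 time in E14TG2a (E14), both established embryonic stem cell lines. EpiLSC had been moved from the naive condition to N2B27 medium with activin A at 20 ng/ml and bFGF at 12 ng/ml and were harvested on day 3. The nESC were kept in 2i/LIF, in which inhibitors of the kinases MEK and GSK3 act together with the cytokine LIF. Medium and cell state changed together, so their effects cannot be told apart.

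In the Hedgehog pathway a secreted ligand binds the receptor Ptch1, which otherwise holds the membrane protein Smo inactive. Gas1 and Boc are co-receptors that help the ligand bind, and Hhip binds the ligand and keeps it from Ptch1. Active Smo releases Gli2 and Gli3 from their inhibitor Sufu in the primary cilium; Gli2 acts mainly as an activator, Gli3 mainly as a repressor once it is cleaved, and Gli1 is an activator that is itself a target gene. Ptch1, Hhip and Gli1 are targets that report pathway activity in many mouse tissues, and the pathway is best known for patterning the embryo after gastrulation begins.

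The deposited table has no column per sample. Its means are sums of whole reads divided by 4 size factors, and for each of the 9 genes only 1 set of 4 whole read numbers with state levels near the deposited fold change gave the deposited mean. Those reads, refitted with a negative binomial model, returned the deposited log2 fold change with a gap of at most 8.50e-06. The split into 2 EpiLSC and 2 nESC libraries is therefore the authors' own contrast, with positive values taken as higher in EpiLSC because Fgf5, Otx2 and Dnmt3b were positive and Zfp42, Klf4 and Esrrb negative. The library of each state with the larger size factor is called A here (1.24 in EpiLSC, 1.28 in nESC) and the other B (0.735 in EpiLSC, 0.876 in nESC); none was assigned to R1 or E14. Total reads per sample are unknown, and the reads of the 9 genes ranged from 15 to 3159 per library.

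The libraries of a state stood apart from each other. Among 3727 rebuilt genes with a mean between 500 and 2000, 38.2% differed by more than 2-fold between EpiLSC libraries A and B and 23.3% between nESC libraries A and B. The log2 differences between A and B in the states ran together across these genes (Pearson r 0.86, a description across genes that share the 4 libraries and their scaling). Each result on the 9 genes is therefore also given within the A libraries and within the B libraries. The cause of this difference was not tested.

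**Figure D1:**
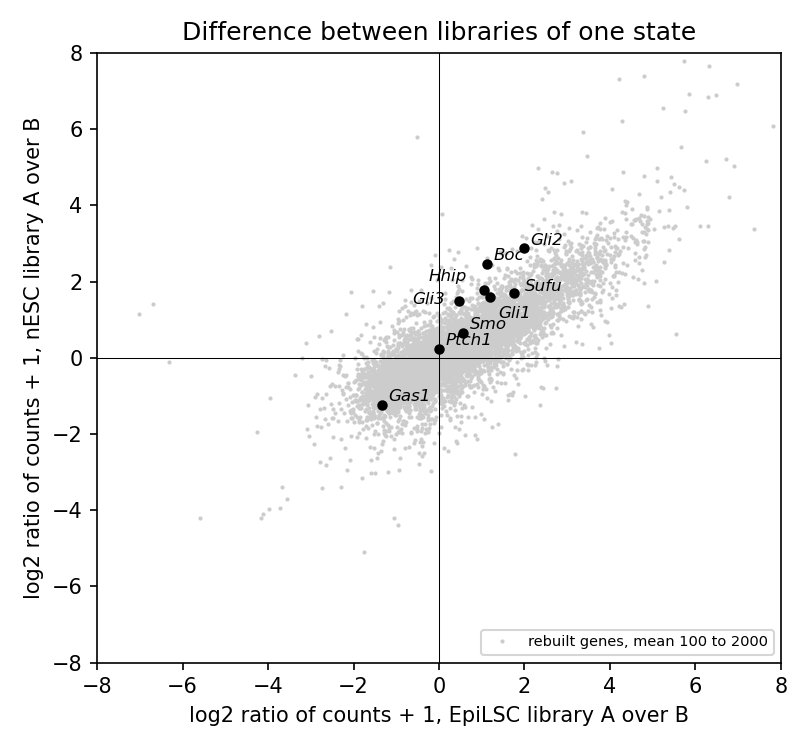
Log2 ratio of library A over library B in EpiLSC (horizontal) and in nESC (vertical), on normalised read counts plus 1. Grey points are rebuilt genes with a mean of 100 to 2000 and black points the 9 Hedgehog genes. Most of the 9 lie toward library A in both states, Ptch1 near the centre, and Gas1 toward library B in both.

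Of the 9 genes, Smo and Gas1 rose and Gli2 fell in EpiLSC, and the other 6 did not pass (DESeq2 Wald test, adjusted p under 0.05). By the same test 13.9% of the 16361 genes tested were called, 7.67% as higher and 6.23% as lower in EpiLSC. The median log2 fold change was 0.09 over the 9 genes and 0.02 over all genes tested. In 6 of the 9, EpiLSC and nESC libraries did not overlap, with 3 genes higher and 3 lower in both EpiLSC libraries. The same held for 50.9% of 13052 rebuilt genes, 26.3% with both EpiLSC libraries above and 24.6% with both below, so nothing particular to these genes is read from it. No tested gene of the table was called at an absolute log2 fold change below 1.68, so failing the test does not show that a gene stayed the same. In bulk RNA, fewer cells with a transcript and less transcript per cell cannot be told apart.

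**Figure D2:**
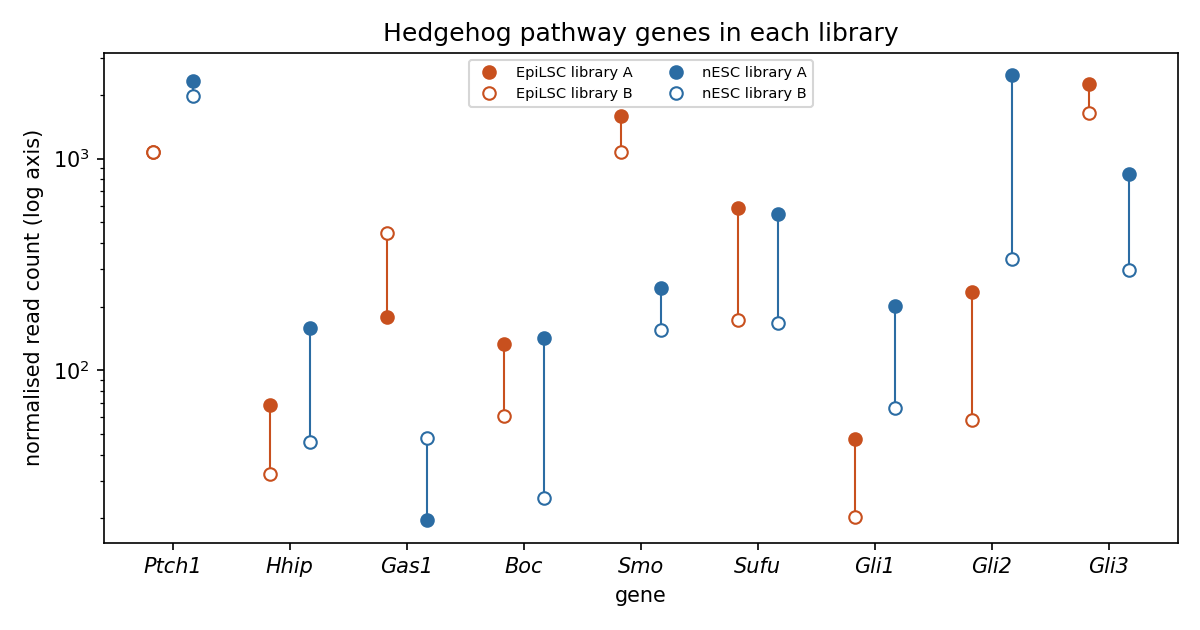
Normalised read count (log axis) of each Hedgehog gene in the 4 libraries, EpiLSC left of nESC for each gene, with filled points for library A and open points for library B. For Smo, Gas1 and Gli3 both EpiLSC libraries lie above both nESC libraries, and for Ptch1, Gli1 and Gli2 below them.

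Smo, the membrane protein that carries the signal past the receptor, was 6.66-fold higher in EpiLSC. It had 1597 and 1077 normalised reads in EpiLSC libraries A and B, against 246 and 155 in nESC libraries A and B. Both EpiLSC libraries lay well above both nESC libraries, and library A was the higher of its pair in each state. The authors' deposited table gave Smo a log2 fold change of 2.74 (SE 0.67, 95% interval 1.42 to 4.05, DESeq2 Wald test adjusted p 0.000737). The ratio was alike in both pairs, 2.70 on the log2 scale in the A libraries and 2.80 in the B libraries.

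Gas1, a membrane-anchored co-receptor that promotes ligand binding, was 9.32-fold higher in EpiLSC. Its normalised read counts were 178 and 448 in EpiLSC libraries A and B, against 19.6 and 47.9 in nESC libraries A and B. Here library B was the higher of each pair, 2.51 times in EpiLSC and 2.45 times in nESC. The log2 fold change was 3.22 (SE 0.84, 95% interval 1.58 to 4.86, DESeq2 Wald test adjusted p 0.00167) in the authors' deposited table. Within the A libraries it was 3.19 and within the B libraries 3.22. Without EpiLSC library B the log2 ratio was 2.40, and without nESC library B it was 4.0. The noncoding gene Gm48488 overlaps exons of Gas1 on the opposite strand, and the strand setting of the counting is not given in the sources used here.

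Gli2, the main activator among the Gli factors, was 9.59-fold lower in EpiLSC. It had 234 and 58.5 normalised reads in EpiLSC libraries A and B, against 2476 and 337 in nESC libraries A and B. The states did not overlap, but nESC library A stood 7.35 times above nESC library B, and EpiLSC library A 4.0 times above EpiLSC library B. For Gli2 the authors' deposited table held a log2 fold change of -3.26 (SE 1.00, 95% interval -5.23 to -1.29, DESeq2 Wald test adjusted p 0.0115). It was -3.40 within the A libraries and -2.53 within the B libraries. Its size depended on which library was counted: the log2 ratio was -1.20 without nESC library A, -4.08 without nESC library B, -4.59 without EpiLSC library A and -2.59 without EpiLSC library B.

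All 3 calls ended when each gene was tested against a 2-fold change in place of no change. The adjusted p was then 0.117 for Smo, 0.0992 for Gas1 and 0.239 for Gli2 (Wald test with the deposited SE), and 6.91% of tested genes were still called, 3.84% as higher and 3.07% as lower. With Bonferroni adjustment 0 of the 9 were called, against 4.36% of tested genes (2.33% higher, 2.02% lower). The 3 calls stood when all 20296 genes entered the adjustment, where 10.6% of genes were called (5.84% higher, 4.75% lower). They also stood when genes with a mean below 100 were left out, where 11.7% were called (5.94% higher, 5.74% lower). limma on the rebuilt reads, added after the data were seen, called 1 of the 9, Smo (adjusted p 0.0435), against 8.46% of rebuilt genes (4.69% higher, 3.77% lower). With libraries A and B as a block, a pairing read from the data, it called 6 of the 9, Ptch1, Gli1 and Gli3 being added, against 39.0% of rebuilt genes (20.0% higher, 19.0% lower).

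The start regions of these 3 genes are shown because they are the called members. Each is the 250 bases before the RefSeq start on GRCm38.p6, written 5′ to 3′ on the gene's strand, with each CpG in capitals. They are Smo at chr6:29735247-29735496 (plus strand), Gas1 at chr13:60177536-60177785 (minus strand) and Gli2 at chr1:119053620-119053869 (minus strand); the authors' build was mm9, so these positions are not theirs.
Smo: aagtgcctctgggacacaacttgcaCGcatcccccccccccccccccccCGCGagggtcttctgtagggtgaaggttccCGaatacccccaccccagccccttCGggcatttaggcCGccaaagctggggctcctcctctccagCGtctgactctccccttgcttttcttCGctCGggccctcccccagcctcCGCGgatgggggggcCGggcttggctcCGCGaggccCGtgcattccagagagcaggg
Gas1: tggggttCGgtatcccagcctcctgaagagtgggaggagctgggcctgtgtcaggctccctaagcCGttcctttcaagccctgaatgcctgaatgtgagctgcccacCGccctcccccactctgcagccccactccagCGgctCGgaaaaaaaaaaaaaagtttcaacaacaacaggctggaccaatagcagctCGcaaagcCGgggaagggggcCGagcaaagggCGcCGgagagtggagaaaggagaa
Gli2: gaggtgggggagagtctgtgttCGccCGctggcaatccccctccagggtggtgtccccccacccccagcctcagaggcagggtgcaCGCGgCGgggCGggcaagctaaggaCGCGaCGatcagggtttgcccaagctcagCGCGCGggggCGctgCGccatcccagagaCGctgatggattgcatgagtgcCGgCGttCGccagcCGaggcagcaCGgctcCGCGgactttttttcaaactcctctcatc
The windows held 15, 10 and 22 CpG, against a median of 6 over 32851 RefSeq windows of this length. Fewer CpG were held by 72.7%, 62.2% and 85.2% of those windows. Among members not called, Ptch1 held 41 CpG, Gli3 34, Hhip 28 and Sufu 8, so the counts do not set the called genes apart. The Gas1 window overlaps an exon of the noncoding gene Gm48488. A start region was found for 7 of the 9 genes; Gli1 and Boc had no entry. None of the 7 held the Gli consensus GACCACCCA on either strand, which 0.225% of all windows hold. They also held none of TAATCC (bound by OTX2, 6.25% of windows), TCAAGGTCA (bound by ESRRB, 0.387%) or the octamer ATGCAAAT (1.60%). The GC box GGGCGG, present in 32.7% of windows, was found in 6 of the 7, all but Smo. The CCAAT box, in 33.8% of windows, was found in Gas1 and Sufu.

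Ptch1, the ligand receptor and a target gene, did not pass, although its libraries varied little. It had 1075 and 1080.1 normalised reads in EpiLSC libraries A and B, against 2321 and 1979 in nESC libraries A and B. EpiLSC libraries were nearly equal and lay below both nESC libraries. The log2 fold change was -1.0 (SE 0.62, 95% interval -2.20 to 0.21, DESeq2 Wald test adjusted p 0.388) in the authors' deposited table. Over all tested genes the smallest standard error in the authors' deposited table was 0.605, so the SE of Ptch1 was close to the smallest given to any gene. The log2 ratio was -1.11 within the A libraries and -0.87 within the B libraries. Ptch1 passed in the added limma fit with A and B as a block (adjusted p 0.000551). The block was a pairing read from the data, and with it 39.0% of rebuilt genes passed.

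Hhip, the ligand-binding inhibitor and another target gene, was scarce. Its normalised reads were 68.6 and 32.6 in EpiLSC libraries A and B, against 158 and 45.7 in nESC libraries A and B. EpiLSC library A lay between the nESC libraries, so the states overlapped. The log2 fold change was -1.01 (SE 0.92, DESeq2 Wald test adjusted p 0.686) in the authors' deposited table, and the 95% interval ran from -2.82 to 0.80. The ratio pointed down within each pair, by -1.21 in the A libraries and -0.48 in the B libraries on the log2 scale, but without nESC library A it was 0.15.

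Boc, an immunoglobulin-type co-receptor, showed no common direction. It had 134 and 61.2 normalised reads in EpiLSC libraries A and B, against 142 and 25.1 in nESC libraries A and B. The states overlapped, and the log2 ratio was -0.08 within the A libraries but 1.29 within the B libraries. The log2 fold change was 0.22 (SE 0.98, 95% interval -1.70 to 2.14, DESeq2 Wald test adjusted p 0.980) in the authors' deposited table.

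Sufu, which binds and restrains the Gli proteins, differed more between libraries A and B than between states. It had 585 and 173 normalised reads in EpiLSC libraries A and B, against 545 and 167 in nESC libraries A and B. Library A exceeded library B 3.38 times in EpiLSC and 3.27 times in nESC, while the log2 ratio between states was 0.10 in the A libraries and 0.05 in the B libraries. Sufu had a log2 fold change of 0.09 (SE 0.88, DESeq2 Wald test adjusted p 0.987) in the authors' deposited table. The 95% interval, from -1.63 to 1.81, leaves room for a change of over 2-fold either way.

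Gli1, the activator that is itself a target, had an unadjusted p of 0.0310 and did not pass the adjustment. It had 47.6 and 20.4 normalised reads in EpiLSC libraries A and B, against 201 and 66.2 in nESC libraries A and B. Both EpiLSC libraries lay below both nESC libraries, and library A was higher than B in each state. Gli1 had a log2 fold change of -1.96 (SE 0.91, 95% interval -3.75 to -0.18, DESeq2 Wald test adjusted p 0.163) in the authors' deposited table. It was -2.07 within the A libraries and -1.70 within the B libraries. Leaving out 1 library moved the log2 ratio of Gli1 to -0.96 without nESC library A, -2.56 without nESC library B, -2.71 without EpiLSC library A and -1.49 without EpiLSC library B. Gli1 passed in the added limma fit with A and B as a block (adjusted p 0.00507), a pairing read from the data. In that fit 39.0% of rebuilt genes passed. Exons of the protein-coding gene Arhgap9 overlap Gli1 on the opposite strand; Arhgap9 had a mean of 54.2 and a log2 fold change of -1.02 (SE 0.99) in the authors' deposited table, and reads of the pair could not be told apart if counting ignored strand.

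Gli3, mainly a repressor of the pathway in its cleaved form, had values in the direction opposite to Gli2 but did not pass in the deposited test. It had 2262 and 1638 normalised reads in EpiLSC libraries A and B, against 847 and 299 in nESC libraries A and B. Both EpiLSC libraries lay above both nESC libraries. The log2 fold change was 1.77 (SE 0.74, 95% interval 0.31 to 3.22, unadjusted p 0.0176, DESeq2 Wald test adjusted p 0.104) in the authors' deposited table. The log2 ratio was 1.42 within the A libraries and 2.45 within the B libraries. It was 2.70 without nESC library A and 1.20 without nESC library B. Without EpiLSC library A it was 1.51, and without EpiLSC library B 1.98. Gli3 passed in the added limma fit with A and B as a block (adjusted p 1.12e-07). That pairing was read from the data, and 39.0% of rebuilt genes passed in the same fit. Gli3 and Hhip, like Gas1 and Gli1, overlap a noncoding gene on the opposite strand, Gm6556 for Gli3, Gm27820 for Hhip and Gm47200 for Gli1.

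**Figure D3:**
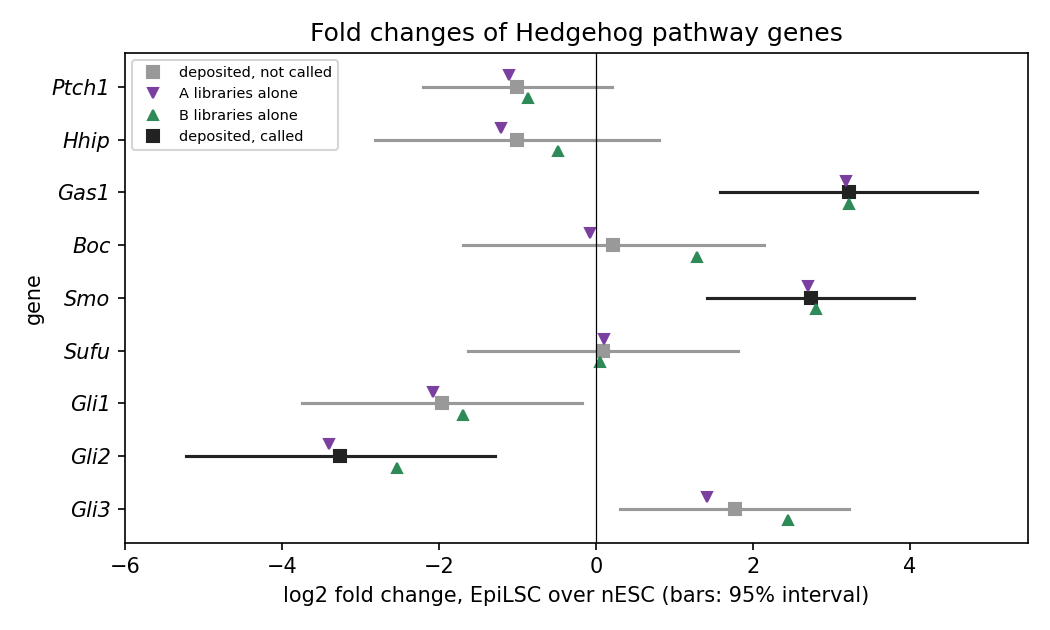
Deposited log2 fold change of EpiLSC over nESC with its 95% interval for each Hedgehog gene (squares, black where called), and the log2 ratio within the A libraries and within the B libraries (triangles). Smo and Gas1 lie right of 0 and Gli2 left of it, while the pair values of Boc fall on both sides of 0.

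Levels of different genes were compared as normalised reads per kb of annotated exon (GENCODE M21). In EpiLSC the order of mean levels was Smo (238 per kb), Gli3 (203), Gas1 (106), Ptch1 (76.0), Sufu (49.2), Boc (21.9), Gli2 (21.3), Gli1 (6.81) and Hhip (5.58). In nESC it was Gli2 (205 per kb), Ptch1 (152), Gli3 (59.8), Sufu (46.2), Smo (35.7), Gli1 (26.7), Boc (18.8), Gas1 (11.4) and Hhip (11.2). Of the 8 neighbouring pairs in each order, 7 overlapped between their libraries. The exceptions were Gli3 above Gas1 in EpiLSC and Ptch1 above Gli3 in nESC. Judged within each library, the order held in both libraries for 5 of the 8 pairs in EpiLSC and 4 of the 8 in nESC. In EpiLSC these included Smo above Gli3 (284 against 236 per kb in library A, 192 against 171 in library B). Gli2 came above Ptch1 only in nESC library A (360.4 against 164 per kb), and in nESC library B it had 49.0 against 139.5 for Ptch1.

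**Figure D4:**
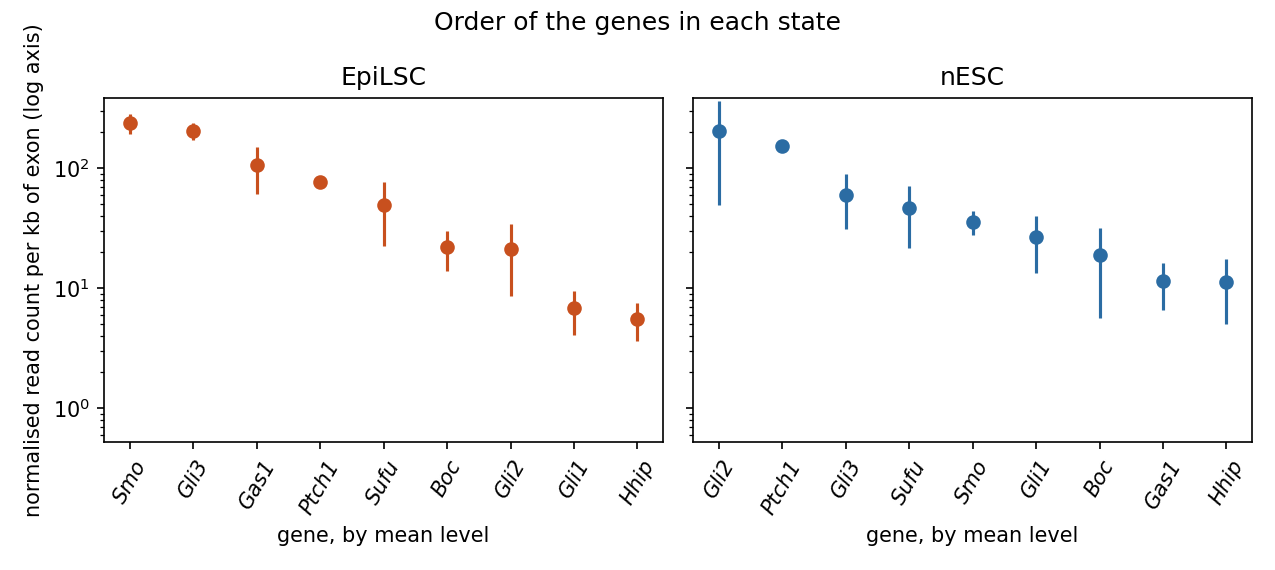
Normalised read count per kb of exon (log axis) of the 9 genes, ordered by mean, in EpiLSC (left) and nESC (right). Points are means and lines join the 2 libraries of the state. By mean, Smo comes first in EpiLSC and Gli2 in nESC, where the line of Gli2 spans 49.0 to 360.4 per kb and reaches below the level of Ptch1.

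A pair of ratios changed side between the states in every library; they were chosen after the values were seen. Gli3 exceeded Gli2 per kb by 6.92 and 20.1 times in EpiLSC libraries A and B, whereas Gli3 over Gli2 was 0.245 and 0.636 in nESC libraries A and B. Smo over Ptch1 was 3.75 and 2.52 in EpiLSC libraries A and B, and 0.268 and 0.198 in nESC libraries A and B. These ratios divide by all annotated exons of a gene together, 14185 bases for Ptch1 and 5621 for Smo, whichever transcripts the cells make. Before that division EpiLSC library B had 1077 normalised reads for Smo and 1080.1 for Ptch1, so there the change of side rests on the length. No test is given for ratios picked in this way.

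Hedgehog ligands were near the detection limit in both states. Shh had 0 and 2.72 normalised reads in EpiLSC libraries A and B and 0 in both nESC libraries, where 0 reads allow up to 3 reads, or 2.35 and 3.42 normalised reads in nESC libraries A and B (counting error only). Ihh had 0.808 and 1.36 normalised reads in EpiLSC libraries A and B, against 2.35 and 0 in nESC libraries A and B. Dhh had 1.62 and 8.16 in EpiLSC libraries A and B, against 2.35 and 3.42 in nESC libraries A and B. These 3 ligands were named after their values were seen. Of the 10 genes for ligands and their processing and release, 7 were tested, 0 were higher and 1, Scube2, was lower in EpiLSC. Of all tested genes 7.67% were called higher and 6.23% lower, and 1 gene of 7 is too few to compare with these shares. Scube2, which helps release lipid-modified ligand, had a log2 fold change of -3.19 (SE 1.06, DESeq2 Wald test adjusted p 0.0240) in the authors' deposited table. Within the A libraries the log2 ratio of Scube2 was -3.83 and within the B libraries -2.38. The related gene Scube3, the most abundant gene of that list that did not pass, had -1.76 (SE 0.72, DESeq2 Wald test adjusted p 0.0871) in the authors' deposited table.

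Among 6 further receptor genes 1, Lrp2, was higher in EpiLSC and 0 were lower, against 7.67% and 6.23% of all tested genes. Lrp2, or megalin, is an endocytic receptor that takes up Shh among many ligands, and it had 8129.6 and 4881 normalised reads in EpiLSC libraries A and B, against 495 and 304 in nESC libraries A and B. Its log2 fold change was 4.03 (SE 0.67) in the authors' deposited table, with an adjusted p of 1.18e-07 by the DESeq2 Wald test. The glypican gene Gpc3, the most abundant of those that did not pass, had a log2 fold change of -0.38 (SE 0.73) in the authors' deposited table. Cdon, the co-receptor most like Boc, was looked at after its value was seen. It had a log2 fold change of 1.02 (SE 0.63, DESeq2 Wald test adjusted p 0.382) in the authors' deposited table.

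Few genes of the cilium and of Gli turnover were called, as among all tested genes, of which 7.67% were called higher and 6.23% lower. Of 23 cilium and transport genes 1 was higher in EpiLSC and 0 lower, with a median log2 fold change of 0.17. The gene that rose was Gpr161, a ciliary receptor that restrains the pathway by raising cyclic AMP. It had 390.0 and 441 normalised reads in EpiLSC libraries A and B, against 89.3 and 68.5 in nESC libraries A and B. Its log2 fold change was 2.39 (SE 0.67, DESeq2 Wald test adjusted p 0.00436) in the authors' deposited table. The dynein gene Dync2h1, the most abundant of those that did not pass, had 0.61 (SE 0.63) in the authors' deposited table.

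Of 25 genes for kinases and turnover 2 were higher in EpiLSC and 0 lower (median log2 fold change 0.14). Kctd11, a cullin adaptor that opposes the pathway, had a log2 fold change of 2.94 (SE 0.92, DESeq2 Wald test adjusted p 0.0139) in the authors' deposited table. Gnas codes for the G protein subunit that stimulates adenylyl cyclase; it had 1.99 (SE 0.70, DESeq2 Wald test adjusted p 0.0346) in the authors' deposited table. The log2 ratio of Kctd11 was 3.64 within the A libraries and 1.99 within the B libraries. Without EpiLSC library A the log2 ratio was 2.19 for Kctd11 and 1.35 for Gnas. Csnk1a1, whose kinase phosphorylates Gli proteins ahead of their cleavage, and the most abundant of those that did not pass, had -0.06 (SE 0.69) in the authors' deposited table. Gpr161, Kctd11 and Gnas are each known as restraints on the pathway; their rise says nothing here of its activity.

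**Figure D5:**
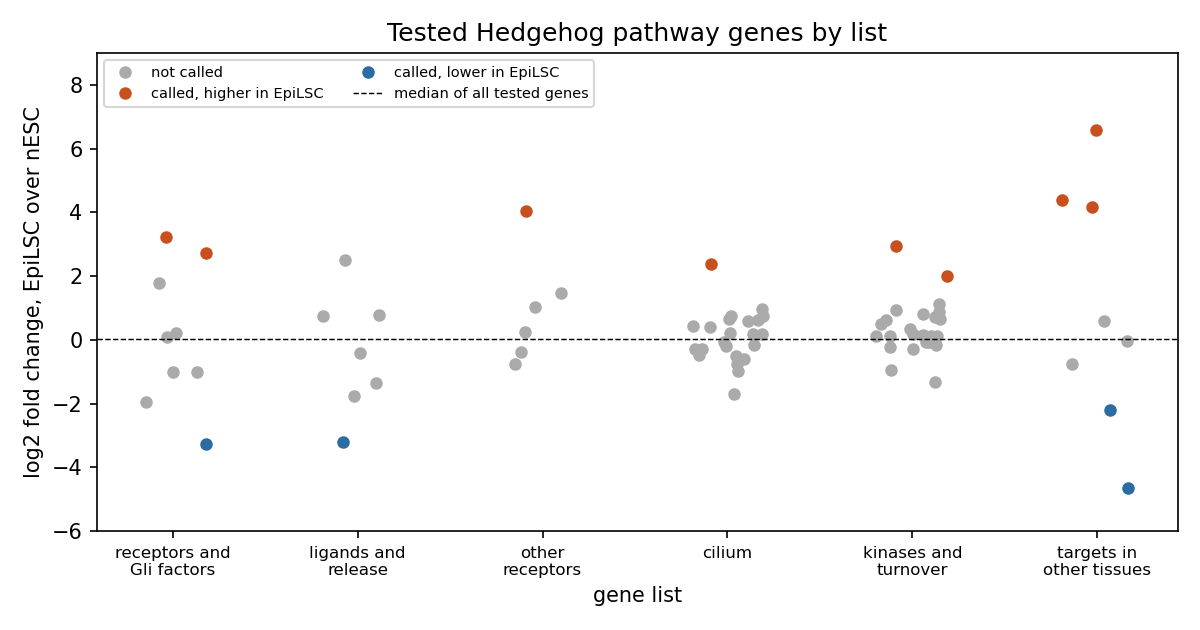
Deposited log2 fold change of EpiLSC over nESC for each tested gene of the 9 Hedgehog members and of 5 lists of pathway genes. Each point is a gene, coloured where called, and the dashed line is the median of all genes tested (0.02). Cilium and turnover genes gather near that line, and genes that are targets in other tissues spread in both directions.

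Genes that are Hedgehog targets in other mouse tissues moved in both directions. Of 20 such genes 15 were in the table and 8 were tested. Of these 3 were higher in EpiLSC and 2 lower, with a median log2 fold change of 0.28. The shares over all tested genes were 7.67% higher and 6.23% lower. The list was chosen with earlier results of these data known, and no test of it was made. Bcl2, which protects from cell death, had a log2 fold change of 4.40 (SE 0.73, DESeq2 Wald test adjusted p 7.71e-08) in the authors' deposited table. Ccnd2, a D-type cyclin, had 4.17 (SE 0.74, DESeq2 Wald test adjusted p 7.35e-07) in the authors' deposited table. Foxa2, a floor plate and endoderm factor, had 6.60 (SE 1.59, DESeq2 Wald test adjusted p 0.000529) in the authors' deposited table, but it had 4.04 and 282 normalised reads in EpiLSC libraries A and B, against 0.784 and 2.28 in nESC libraries A and B. Without EpiLSC library B the log2 ratio of Foxa2 was 1.40, and without EpiLSC library A that of Ccnd2 was 3.48. Sfrp1, a secreted Wnt antagonist, was lower at -4.63 (SE 0.63, DESeq2 Wald test adjusted p 1.81e-11) in the authors' deposited table. The growth factor gene Bmp4 was lower at -2.20 (SE 0.76, DESeq2 Wald test adjusted p 0.0324) in the authors' deposited table. Ccnd1, the most abundant target that did not pass, had -0.03 (SE 0.64) in the authors' deposited table. These genes are known to respond to other pathways too. In all 10 called genes of the 5 pathway lists, the ratios within the A libraries and within the B libraries had the sign of the deposited fold change. These genes were called from the same 4 libraries, so the shared sign is a description and adds no support to the calls.

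Markers of the states went with the labels, but they also set the direction of the contrast: all 10 naive markers were lower and all 8 formative markers higher in EpiLSC. Markers of other cells moved as well, and the calls below stand beside 7.67% of all tested genes called higher and 6.23% lower. Of 13 fibroblast and feeder markers 12 were in the table and 9 tested, with 4 higher and 0 lower in EpiLSC. Their summed level was 1569.9 and 947 normalised reads in EpiLSC libraries A and B, against 671 and 259 in nESC libraries A and B. Without Fbn1 it was 979.6 and 441 in EpiLSC libraries A and B, against 564 and 211 in nESC libraries A and B. EpiLSC library B then lay below nESC library A. The 4 that rose were Thy1, Mmp2, Dcn and Fbn1. Dcn had 27.5 and 77.5 in EpiLSC libraries A and B, against 0 and 1.14 in nESC libraries A and B. Pdgfra and Pdgfrb pointed down without passing, at log2 fold changes of -2.38 and -1.24 (DESeq2 Wald test adjusted p 0.121 and 0.597). Col1a2 and Col1a1 pointed up without passing, at 2.69 and 1.55, and Col5a1 had 0.02 (DESeq2 Wald test adjusted p 0.998). Col5a1 had 372 and 66.7 normalised reads in EpiLSC libraries A and B, against 385 and 47.9 in nESC libraries A and B. The other collagen genes of the list, Col1a2, Col1a1 and Col3a1, were low. Col1a2 had 23.4 and 31.3 in EpiLSC libraries A and B, against 3.92 and 4.57 in nESC libraries A and B. Col1a1 had 15.3 and 2.72 in EpiLSC libraries A and B, against 3.92 and 2.28 in nESC libraries A and B. Col3a1 had 0 and 15 in EpiLSC libraries A and B and was at 0 in both nESC libraries. Of 15 mesoderm and endoderm markers 11 were tested, 4 higher and 2 lower. They summed to 1338 and 4654 in EpiLSC libraries A and B, against 671 and 1085 in nESC libraries A and B. Without Eomes the sums were 594 and 1563 in EpiLSC libraries A and B, against 346 and 987 in nESC libraries A and B. EpiLSC library A then lay below nESC library B. Of 11 neuroectoderm markers 7 were tested, 3 higher and 1 lower, with sums of 12083 and 8856 in EpiLSC libraries A and B, against 3608 and 2845 in nESC libraries A and B. Without Nes, which is also expressed in other progenitors, they summed to 2159 and 1809 in EpiLSC libraries A and B, against 2967 and 1626 in nESC libraries A and B. Of 10 primitive endoderm markers 8 were tested, 2 higher and 1 lower. Their sums were 1605 and 566 in EpiLSC libraries A and B, against 8020.1 and 5302 in nESC libraries A and B. Lama1 carried the nESC sums, and without it the direction turned, with 1427 and 472 in EpiLSC libraries A and B, against 159.9 and 139 in nESC libraries A and B. The part of these cell types in the values of Smo, Gas1 and Gli2 was not tested.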

How the data were processed

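Ribosomal RNA-depleted, strand-specific RNA libraries of 2 EpiLSC and 2 nESC samples were sequenced, per the labels' protocols. The submitters' processing notes name TopHat2, HTSeq, DESeq2 1.8.2 and the build mm9; neither annotation nor strand setting was given in the sources used here. The deposited mean is a signal, counts divided by size factors by the authors. The deposited log2 fold changes, their SE, the Wald score and the p-value columns come from the authors' DESeq2 model, per the file headers. The main results are these values, called at an adjusted p under 0.05. The planned design was used as written; leaving out a library gives values with no test.

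All 159 distinct means at the low end were whole-read sums of 4 steps, which gave the size factors. Reads were rebuilt for 13052 of 13285 tested genes with a mean up to 2000, 12434 of them with the deposited fold change met within 0.0001 and the others, with a mean up to 300, from the mean as the only set of reads found near the deposited fold change. All 17 list genes tried with a mean between 2000 and 5071 were also rebuilt, each by 1 set of reads that met the deposited fold change with a gap of at most 7.85e-06. Of 188 genes with simulated reads and means up to 2000, 187 were recovered and 0 were wrong. For the 9 genes, reads placed on any other side of the contrast missed the deposited fold change by at least 0.0252. Only 1 file was used, and no column was left unmapped. Each 95% interval spans the log2 fold change by its SE times the normal quantile, on either side. Each line was sampled 1 time per state, so p-values include the difference between lines. limma 3.58.1 (R 4.3.3, pseudocount 1) was added after the data were seen; other steps used Python 3.11.15.

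Gene names came from GENCODE M21 (20167 of 20296 IDs, without the version), exon lengths likewise, and start regions from RefSeq GRCm38.p6. Named genes were all 9 members and, in each pathway list, up to 3 called genes in each direction by smallest p and the most abundant gene that did not pass. Members and lists were chosen with earlier results of these data known.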

Additional observations from a re-analysis of the deposited data

How the results depend on the processing

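Adjusting over all genes with a p left 2 members higher and 1 lower in EpiLSC, against 5.84% of genes higher and 4.75% lower. Adjusting over genes with a mean of 100 or more gave the same counts, against 5.94% higher and 5.74% lower. Gli1, Hhip and Boc had lower means and were not part of that setting. Tested against a 2-fold change, 0 were called in either direction (adjusted p 0.117 for Smo, 0.0992 for Gas1 and 0.239 for Gli2), and with Bonferroni adjustment also 0 (adjusted p 0.762, 1.00 and 1.00 for Smo, Gas1 and Gli2). Of all tested genes 6.91% were called against a 2-fold change and 4.36% with Bonferroni adjustment. No block by cell line was fitted, since no library could be assigned to a line. limma on rebuilt reads without a replicate block, added after the data were seen, called 1 gene higher, Smo (adjusted p 0.0435), and 0 lower (Gas1 0.0817, Gli2 0.218), against 8.46% of all rebuilt genes. With libraries A and B as replicate block, a pairing taken from the data and not from the design, limma called 3 higher and 3 lower, against 39.0% of rebuilt genes. The added calls were Ptch1 (adjusted p 0.000551), Gli1 (0.00507) and Gli3 (1.12e-07), while Smo (1.95e-09), Gas1 (7.63e-07) and Gli2 (1.04e-08) passed as well and Sufu, Hhip and Boc did not pass (0.899, 0.231 and 0.414).

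Leaving out each library in turn, log2 ratios ranged from 2.42 to 3.11 for Smo, 2.40 to 4.0 for Gas1, -4.59 to -1.20 for Gli2, 1.20 to 2.70 for Gli3, -2.71 to -0.96 for Gli1, -1.11 to -0.88 for Ptch1, -1.64 to 0.15 for Hhip, -1.04 to 1.18 for Sufu and -0.54 to 1.96 for Boc. Hhip, Sufu and Boc thus changed sign, none of which was called. Ratios of mean scaled reads matched the deposited fold changes within the spread of the libraries. This is no separate check, because the reads were chosen to meet those fold changes. With 2 libraries per state and SE of 0.605 or more, changes of 2-fold are beyond what this table can call.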
